A study of Macaca mulatta with 24 samples.

Results

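The 16 ethanol-drinking rhesus macaques of a set of 24 are described here as a gradient of daily ethanol intake, from 0.47 to 3.78 g/kg. They were chosen by category, as the animals recorded as LD, HD or VHD, and ordered by the intake recorded for each. RNA of the nucleus accumbens core (NAcc) had been sequenced in each animal, which contributed 1 library, and the values are the authors' TPM (a gene's length-corrected share of all transcripts of a library, scaled to a total of 1000000). The question was whether the level of any gene followed how much an animal drank, rather than the category it had been placed in.

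The drinkers were unrelated adult males that had been trained by schedule-induced polydipsia to drink 4% ethanol and then had ethanol and water side by side for 22 h a day over 12 months. They were killed without a period of enforced abstinence. The 8 LD animals, light and binge drinkers together, form the group LD*, and the 4 HD and 4 VHD animals, heavy and very heavy drinkers, form HD*. The 8 controls went through the same procedure with water at both spouts and a 10% maltose dextrin drink to match calories. Drinking was voluntary, so intake was not assigned to an animal, and each animal was measured at 1 intake only. Intake ran from 0.47 to 2.07 g/kg in LD* and from 2.74 to 3.78 g/kg in HD*, so that the groups did not overlap. Cohort 4 gave 2 LD* animals (LD 1 and LD 2), the lowest drinkers and the oldest animals, and cohort 5 gave 4 HD* animals. Cohort 7a gave 3 LD* and 4 HD* animals and cohort 7b gave 3 LD* animals, so only in cohort 7a did the gradient cross both groups inside a cohort.

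The NAcc core is a part of the ventral striatum made up mostly of inhibitory medium spiny neurons, which receive glutamate from cortex and limbic areas and dopamine from the midbrain. It is known for its part in reward and in the control of learned, goal-directed actions such as drug taking. Ethanol is oxidised to acetaldehyde and then, largely by mitochondrial ALDH2, to acetate, and at the synapse it acts on GABA-A, glycine and glutamate receptors among other targets.

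Markers of the dissected tissue were present in all drinkers. The summed level of 14 medium spiny neuron markers ranged from 3676 to 11210 TPM with a median of 7737 TPM, and 13 of the 14 had a mean of at least 10 TPM. In bulk tissue, fewer cells of a type and less RNA per cell cannot be told apart. Of 6 cortical excitatory neuron markers, 1 reached that mean, and their sum was 10.0 TPM at the median of the drinkers, 250 TPM in LD 2 and 884.5 TPM in LD 4. The 2 blood markers summed to at most 22.4 TPM and the 4 ependymal and choroid plexus markers to at most 28.9 TPM. The 12 oligodendrocyte markers summed to 1781 TPM in LD 2 and 2088 TPM in LD 1, the lowest of the drinkers, against a median of 2997 TPM and a highest value of 6910 TPM.

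Libraries differed from each other, in part along the gradient. The first principal component of the drinkers held 49.4% of the variance and had the highest scores in VHD 4 (58.0), VHD 3 (39.5) and LD 5 (35.8). Its rank correlation with intake was 0.573 (Spearman's rho, permutation test, p = 0.0223, adjusted p = 0.0445 over 4 measures of the libraries), with a Pearson r of 0.419 (permutation p = 0.107) and an r of 0.373 without the 2 animals farthest from the median intake (LD 2 and VHD 1). Without cohort 4 the rho was 0.421 (permutation p = 0.135, n = 14), and in cohort 7a it was 0.857 (exact permutation p = 0.0238, n = 7). The scaling factor of the trimmed mean of M-values (TMM), which is low where a few genes take up much of a library, was 0.702 in VHD 4, 0.821 in VHD 3 and 0.844 in LD 5, and at least 0.939 in the other drinkers. Its rho with intake was −0.483 (permutation adjusted p = 0.0811), and that of the number of genes at 1 TPM or more was −0.144 (permutation adjusted p = 0.592). Ribosomal protein transcripts summed to between 166760 and 180620 TPM in those 3 libraries. Results are therefore given for the deposited TPM, after TMM rescaling, without cohort 4, and without these 3 animals, the last chosen after their values were seen.

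**Figure D1:**
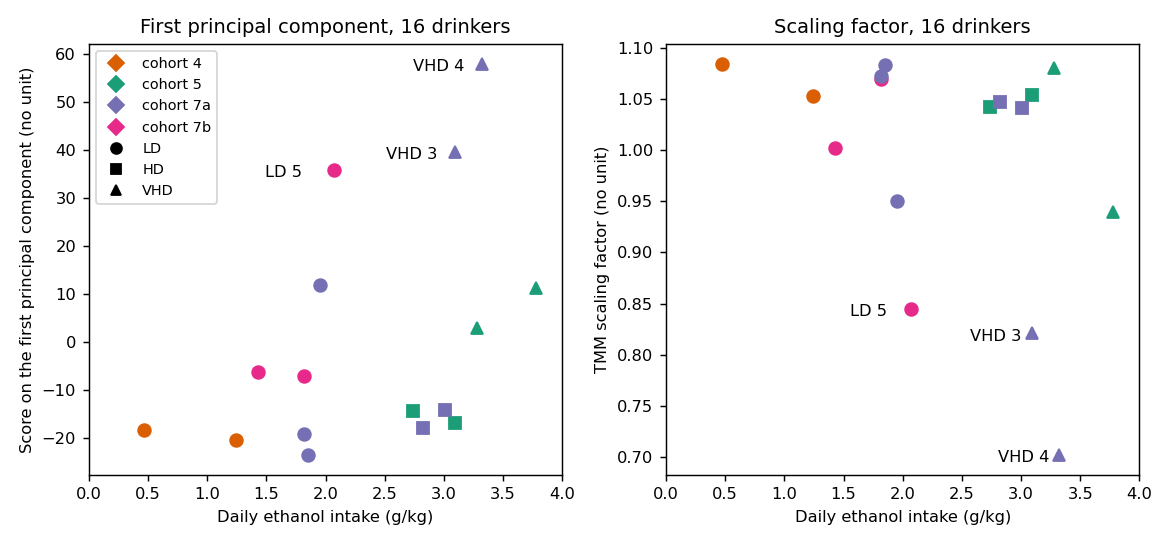
Score on the first principal component (left) and TMM scaling factor (right) of the 16 drinkers against daily ethanol intake in g/kg, 1 point per animal, coloured by cohort with a symbol for each category. LD 5, VHD 3 and VHD 4 lie apart from the other 13 drinkers on both axes, with factors of 0.844, 0.821 and 0.702.

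Ranking against intake covered the 9197 genes that averaged 10 TPM or more across the 24 animals. At an adjusted p under 0.05, 0 genes were called (0% of those tested), by rank correlation with 100000 permutations of the intake values (smallest adjusted p = 0.305) and by the slope of log2(TPM + 1) on intake in limma (smallest adjusted p = 0.457). An unadjusted p under 0.05 was reached by 1475 genes by rank (16%), 239 with a positive rho (2.6%) and 1236 with a negative one (13.4%), and 631 genes by slope (6.86%), of which 133 were positive. A rho beyond 0.498 in either direction was needed for an unadjusted p under 0.05. Over all genes the median rho was −0.264 and the median slope −0.07 on the log2 scale per g/kg. After TMM rescaling the median rho was 0.00589, and the 1292 genes at an unadjusted p under 0.05 (14%) split into 604 positive and 688 negative. TMM rescaling centres the bulk of the genes in each library, so this even split is set by the scaling.

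The size of that count rested on a few animals. It was 290 (3.15%) without cohort 4 and 359 (3.9%) without LD 5, VHD 3 and VHD 4. With 1 drinker left out it ran from 527 without VHD 4 to 2072 without HD 2, and it was 786 without LD 1, 865 without LD 2 and 790 without VHD 3. With the 8 controls added at an intake of 0 it was 687 (7.47%). The limma count moved as widely, to 62 (0.674%) without cohort 4, 71 (0.772%) with age as a term and 3148 (34.2%) with cohort as a term, 281 of the last positive, and 0 genes passed an adjusted p under 0.05 in any of them (smallest adjusted p = 0.112).

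**Figure D2:**
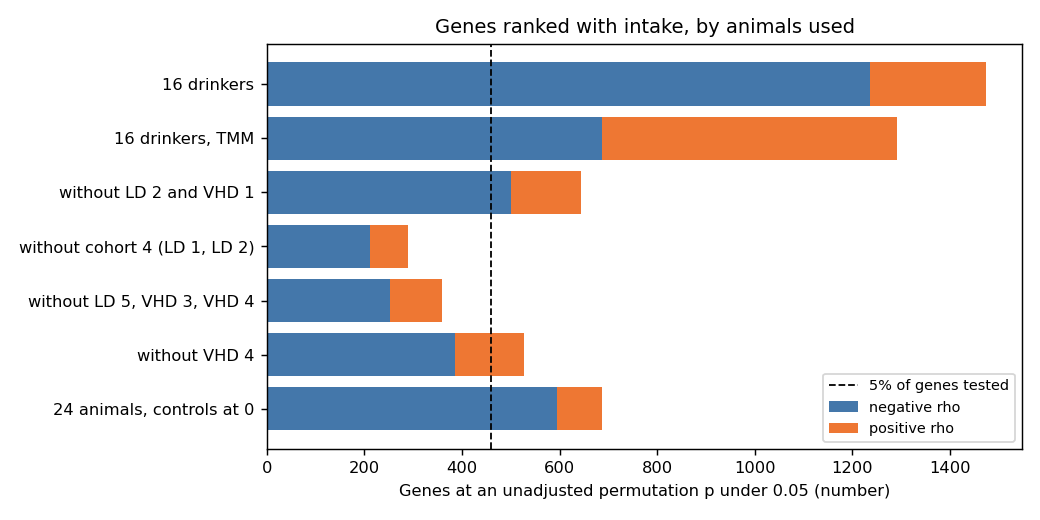
Number of genes at an unadjusted permutation p under 0.05 for the rank correlation with intake, in bars split into negative and positive rho, for 7 choices of animals or scaling; the dashed line marks 5% of the 9197 genes tested. The count is 1475 with all 16 drinkers and falls under the line without cohort 4 (290) and without LD 5, VHD 3 and VHD 4 (359).

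STON2 had the strongest relation to intake over all 16 drinkers. It encodes stonin 2, an adaptor that sorts synaptotagmin into vesicles during synaptic vesicle recycling. Levels ran from 15.5 to 18.7 TPM (median 16.8 TPM) in LD* and from 20.04 to 26.2 TPM (median 22.4 TPM) in HD*, so that all 8 HD* animals lay above all 8 LD* animals. The rho was 0.856 (permutation p = 6e-05, adjusted p = 0.305, n = 16) and the slope 0.23 on the log2 scale per g/kg (SE 0.05). With 1 drinker left out the rho stayed between 0.825 and 0.912. It was 0.797 without cohort 4, 0.861 without LD 5, VHD 3 and VHD 4, and 0.893 in cohort 7a (n = 7).

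After TMM rescaling STON2 had a rho of 0.910, and with 1000000 permutations, needed because 100000 cannot give a single gene an adjusted p under 0.0920, it was the 1 gene called (0.0109% of those tested, permutation adjusted p = 0.0276). It was also the 1 gene called with that number of permutations after TMM rescaling of the 13 drinkers without LD 5, VHD 3 and VHD 4 (permutation adjusted p = 0.0184). On the deposited TPM with Pearson's r and 1000000 permutations its adjusted p was 0.0828. The call thus needed both the rescaling and the larger number of permutations. Within groups STON2 ranked with intake in LD* (rho 0.778, n = 8) and had a rho of 0.0479 in HD* (n = 8), where HD 1 and HD 2, with the lowest and a middle intake of the group, held its highest levels (24.2 and 26.2 TPM). With the group as a term beside intake, the intake slope of STON2 was 0.098 on the log2 scale per g/kg (SE 0.105, limma adjusted p = 0.599). For this gene an intake gradient and a step between LD* and HD* thus could not be told apart. The difference in slope between LD* and HD* had a limma adjusted p of 0.999. Controls, at 0 g/kg, did not continue the line of the drinkers. Their levels ran from 15.1 to 26.7 TPM with a median of 23.8 TPM, above the HD* median, whereas the line fitted to the drinkers gave 13.1 TPM at 0 g/kg, below all 8 controls.

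The other 9 genes of positive slope by the smallest limma p had rho from 0.530 to 0.750. PBXIP1, which binds PBX homeobox proteins, was lowest among the drinkers in LD 2 (42.3 TPM) and highest in VHD 3 (156 TPM), with controls from 68.6 to 227 TPM, and its slope was 0.37 on the log2 scale per g/kg (SE 0.08). CIB1, a calcium- and integrin-binding protein, ran from 92.2 to 150 TPM in LD* and from 105 to 204 TPM in HD*, and its rho in cohort 7a was 0.893. Levels of both genes overlapped between LD* and HD*.

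ALDH2, the mitochondrial enzyme that clears acetaldehyde, had levels from 304 to 542 TPM (median 346 TPM) in LD* and from 311 to 640 TPM (median 448 TPM) in HD*. Its rho was 0.719 (permutation p = 0.00253, adjusted p = 0.305), 0.649 after TMM rescaling, 0.619 without cohort 4, 0.754 inside LD* and 0.743 inside HD*. The controls, however, spanned 315 to 865 TPM with a median of 435 TPM, close to the HD* median. NPM2 (a histone chaperone of the nucleoplasmin family), TMEM256, TNNC2 (fast skeletal muscle troponin C), CINP (a CDK2-interacting protein), EGFL7 (secreted by endothelial cells) and RERGL (a Ras-like GTPase) completed the group. The rank correlations of the 10 ran from 0.601 to 0.910 after TMM rescaling, from 0.313 to 0.797 without cohort 4 and from 0.357 to 0.893 inside cohort 7a, a positive sign that the choice of genes on the same animals largely fixes. For 6 of the 10, ALDH2, CIB1, TMEM256, EGFL7, TNNC2 and CINP, the highest HD* level was in VHD 4, the library of lowest TMM factor.

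The 10 genes of negative slope had rho from −0.794 to −0.623. AK5, a brain adenylate kinase, was highest among the drinkers in LD 2 (267 TPM) and lowest in VHD 4 (38.3 TPM), with medians of 210 TPM in LD* and 122 TPM in HD*, a rho of −0.728 and a slope of −0.52 (SE 0.16). The lowest LD* level, 75.2 TPM, was in LD 5, so that the groups overlapped.

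ARHGEF3, a guanine nucleotide exchange factor of small GTPases, and PCDHB4, a protocadherin of the neuronal beta cluster, were the named genes of this direction with the lowest rank correlations. ARHGEF3 ran from 23.9 to 54.6 TPM in LD* and from 17.9 to 47.6 TPM in HD* (rho −0.785, permutation p = 0.00059). PCDHB4 ran from 5.55 to 17.9 TPM in LD* and from 3.01 to 11.8 TPM in HD* (rho −0.794, permutation p = 0.00034). Both were at least as strongly ordered without LD 5, VHD 3 and VHD 4 (−0.814 and −0.828) and after TMM rescaling held −0.773 and −0.817. Their adjusted p was 0.305 in the permutation test.

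C1QL3, a secreted synaptic organiser, had the steepest slope of these 10 (−0.68, SE 0.19), with uneven levels. LD 4 and LD 2 held 59.4 and 55.3 TPM and the other 14 drinkers no more than 17.1 TPM. The same 2 animals had the highest sums of cortical excitatory neuron markers among the drinkers (884.5 and 250 TPM), as did Control 2 among the controls (424 TPM, with 35.6 TPM of C1QL3). HD 4, with a marker sum of 244 TPM, had 10.3 TPM of C1QL3, and the part of those markers in the slope was not tested. SLCO1C1, a thyroid hormone transporter of brain endothelium and astrocytes, was likewise highest in LD 2 (29.1 TPM) and LD 4 (20.8 TPM), and its rho was −0.733 in all drinkers and 0.0838 inside HD*. RPUSD4 (a mitochondrial RNA pseudouridine synthase), C1orf95, ZNF134 (a zinc finger protein) and EPB41L4B (of the band 4.1 family) also belonged to the group. The rank correlations of all 10 ran from −0.817 to −0.445 after TMM rescaling, from −0.696 to −0.454 without cohort 4 and from −0.964 to −0.607 inside cohort 7a, a sign that the choice again largely fixes. For 7 of the 10 the lowest HD* level was in VHD 4.

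**Figure D3:**
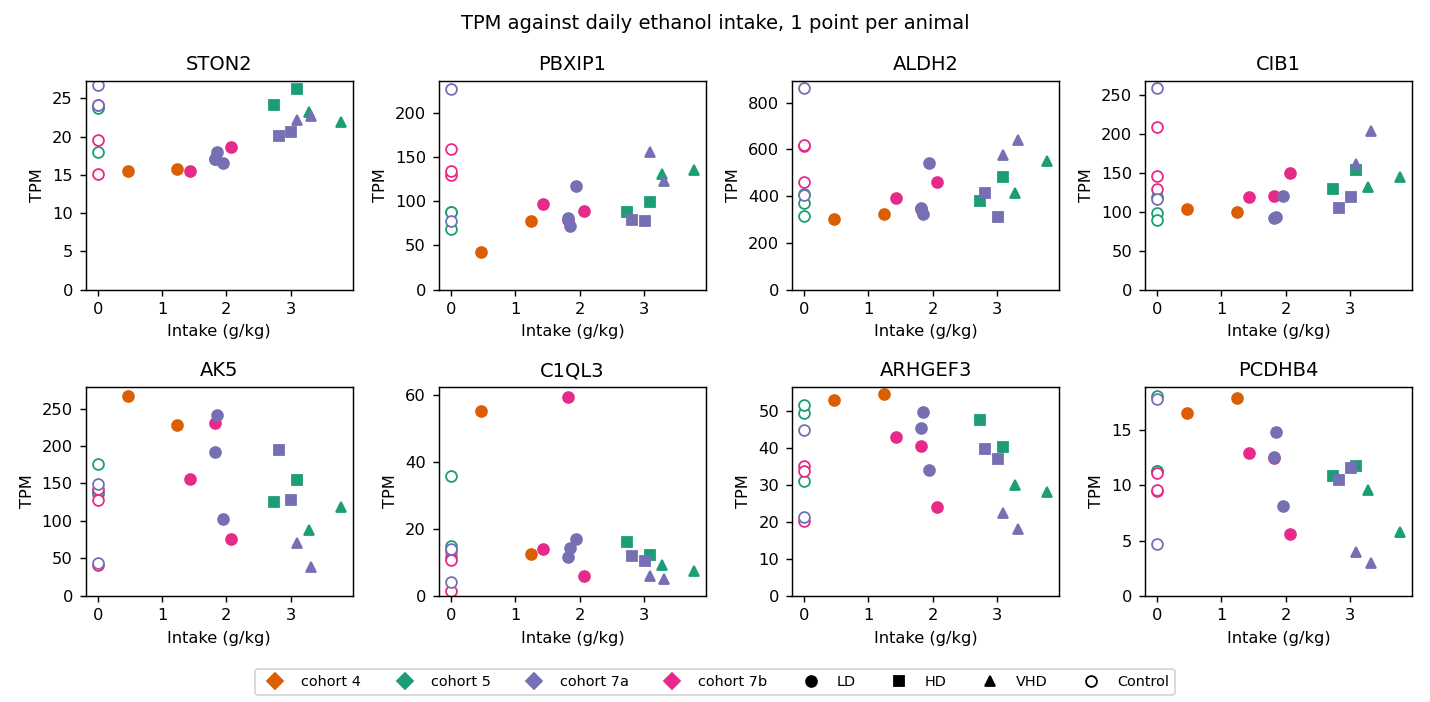
TPM of 8 named genes against daily ethanol intake in g/kg, 1 point per animal, coloured by cohort with a symbol for each category and open circles for the 8 controls at 0 g/kg. STON2 separates LD* (at most 18.7 TPM) from HD* (at least 20.04 TPM), and the open circles at 0 g/kg spread over the range of the drinkers instead of extending their lines.

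The controls had not been used in the ranking of drinkers. They came from cohorts 5, 7a and 7b, so cohort 4, with the lowest drinkers, had no control. Genes were chosen for their slope in the drinkers, so a control median between those of LD* and HD* can follow from the choice. Of the 20 genes named for their intake slope, 1 (TNNC2) had a control median that lay beyond the LD* median on the side that the drinkers' slope points to at 0 g/kg. For 17 genes the control median fell between those of LD* and HD*, and for STON2 and TMEM256 it lay beyond the HD* median. AK5 had 137 TPM at the control median against 210 TPM in LD* and 122 TPM in HD*. For 16 of these genes, fitted lines at 0 g/kg lay beyond the levels of all 8 controls, and for NPM2, TNNC2, CINP and RERGL beyond those of 7. Of the 20 genes, STON2 was the 1 without overlap between LD* and HD*. Overlap was not counted over all genes tested, and the 20 were chosen on these same animals. Whether such a separation is rare among all genes was therefore not tested.

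By rank alone, 3 genes outside the rule stood as high, and they are named after their values were seen. SYN2, synapsin II of the synaptic vesicle surface, had the most negative rho of all genes (−0.826, permutation p = 0.00019, adjusted p = 0.305). It ran from 93.5 to 356 TPM (median 250 TPM) in LD*, from 78.5 to 231 TPM (median 175 TPM) in HD* and from 86.3 to 218 TPM (median 184 TPM) in controls, and LD 2 was the highest of the 24 animals. VHD 4, VHD 3 and LD 5 held the 3 lowest levels of the drinkers. DAD1, a subunit of the oligosaccharyltransferase of the endoplasmic reticulum, had the second most positive rho (0.807), with levels from 263 to 321 TPM in the drinkers and from 257 to 358 TPM in controls. SIRPA, the receptor for CD47, had a rho of −0.789.

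Mean blood ethanol, sampled partway through the daily session and thus before drinking had ended, followed intake in the 15 drinkers that had a value (rho 0.857, permutation p = 0.00017, n = 15; Pearson r 0.882, permutation p = 4e-05; r 0.873 without LD 1 and LD 3). Inside the groups the relation was looser, with a rho of 0.252 in LD* (exact permutation p = 0.582, n = 7) and 0.539 in HD* (exact permutation p = 0.178, n = 8), and inside cohort 7a it was 0.893 (exact permutation p = 0.0123, n = 7). Genes were ranked against it in the same way. At an adjusted p under 0.05, 0 genes were called by rank (smallest adjusted p = 0.644) and 0 by slope in limma (smallest adjusted p = 0.761), and an unadjusted p under 0.05 was reached by 363 by rank (3.95%) and 259 by slope (2.82%). In the same 15 animals intake gave 865 genes by rank (9.41%). Both gradients share the animals, so values for them are side by side and not independent.

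By rank STON2 had the highest rho with blood ethanol also (0.857, permutation p = 7e-05, adjusted p = 0.644), with a slope of 0.06 on the log2 scale per 10 mg/dL (SE 0.02). COL9A1, a collagen IX chain, had the smallest limma p of all genes, a steeper slope of 0.11 (SE 0.03, limma adjusted p = 0.761), a rho of 0.521 and a highest level in VHD 2 of 23.7 TPM, the other HD* animals reaching 14.0 TPM. CSDC2, a cold shock domain RNA-binding protein, had a rho of 0.654.

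WIF1, a secreted inhibitor of Wnt signalling, had a rho of −0.557 with blood ethanol and of −0.289 with intake, and ran from 60.6 to 132 TPM in LD* and from 27.7 to 81.2 TPM in HD*, with controls from 5.32 to 127 TPM. The lowest levels of the drinkers were in VHD 2 and HD 1, at 27.7 and 28.3 TPM. On blood ethanol alone the slope of WIF1 was −0.12 on the log2 scale per 10 mg/dL (SE 0.03, limma adjusted p = 0.761). Intake had a Pearson r of 0.882 with blood ethanol. With intake as a second term in limma, WIF1 was the 1 gene called for blood ethanol (0.0109% of genes called). Its slope was then −0.32 on the log2 scale per 10 mg/dL (SE 0.05, limma adjusted p = 0.0429). Leaving out 1 drinker kept the slope between −0.35 and −0.28 and the adjusted p under 0.05 in 2 of 15 cases. That limma adjusted p was 0.678 without VHD 2, 0.105 without HD 1 and 0.151 after TMM rescaling. ICAM5, an adhesion molecule of telencephalic neurons, had a rho of −0.586 with blood ethanol, and FHL2, a LIM domain protein, of −0.414.

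The synaptic receptor genes had negative correlations with intake in the deposited TPM. All 25 measured GABA and glycine genes had a negative rho (median −0.430, against −0.264 over all genes), and 7 of them were at an unadjusted p under 0.05 with a negative rho, beside 13.4% of all genes. Among these were the GABA-A subunits GABRB1, GABRA3 and GABRA2, the glycine receptor subunits GLRB and GLRA4, and GAD1, which makes GABA. GABRB1 ran from 14.95 to 59.1 TPM in LD* and from 17.6 to 36.8 TPM in HD* (rho −0.670). GABRG1 had the weakest rho (−0.147), which was 0.0162 after TMM rescaling.

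The list sum was 1796 to 3811 TPM (median 3442 TPM) in LD*, 1854 to 3572 TPM (median 3116 TPM) in HD* and 1788 to 3662 TPM (median 3026 TPM) in controls, and LD 5, VHD 3 and VHD 4 held the 3 lowest sums of the drinkers. After TMM rescaling 22 of 25 were negative (median −0.349, against 0.00589). Without those 3 animals 24 of 25 were negative (median −0.311, against −0.102), and 1 was at an unadjusted p under 0.05, beside 252 of all 9197 with a negative rho. Without cohort 4 all 25 stayed negative (median −0.341), beside 6864 of all 9197 (median −0.227). By the permutation test 0 of the 25 were then at an unadjusted p under 0.05, beside 211 of all 9197 with a negative rho.

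All 14 glutamate receptor genes had a negative rho (median −0.376), beside 6784 negative of all 9197, and 3 were at an unadjusted p under 0.05, beside 13.4% of all genes, namely the AMPA receptor subunits GRIA1 and GRIA2 and the metabotropic receptor GRM3. GRIA1 ran from 73.2 to 266 TPM (highest in LD 2) in LD*, from 49.4 to 232 TPM in HD* and from 76.9 to 180 TPM in controls, with a rho of −0.617 and, after TMM rescaling, −0.564. The median of the list was −0.303 after TMM rescaling (against 0.00589), where the kainate receptor subunit GRIK5 had a rho of 0.218, and −0.237 without LD 5, VHD 3 and VHD 4 (against −0.102).

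Genes of striatal signalling were less ordered over all 16 drinkers. Of 19 dopamine and cAMP genes, 17 had a negative rho (median −0.162), and the 2 at an unadjusted p under 0.05 were the protein kinase A subunits PRKACA and PRKACB, a smaller share than the 13.4% of all genes. The dopamine receptors DRD1 and DRD2 had rho of −0.233 and −0.00295, and PPP1R1B, which encodes DARPP-32, −0.105. Among 11 opioid and neuropeptide genes 9 were negative (median −0.194). PENK, the enkephalin precursor, had a rho of −0.194, PDYN, the dynorphin precursor, −0.473 and PNOC, the nociceptin precursor, −0.508. Both medians were above that of all genes. Without LD 5, VHD 3 and VHD 4 the median of the dopamine and cAMP genes was 0.00550. Inside HD* the medians were −0.659 for dopamine and cAMP genes and −0.491 for opioid and neuropeptide genes, against −0.311 over all genes. Inside LD* they were −0.287 and −0.371, against −0.335.

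Of 24 potassium channel genes 20 had a negative rho (median −0.306), beside 6784 of all 9197 (median −0.264), and 2, KCNJ9 (a GIRK channel) and KCND3 (an A-type Kv4 channel), were at an unadjusted p under 0.05 with a negative rho, a smaller share than the 13.4% of all genes. KCNJ9 ran from 46.1 to 93.5 TPM (median 83.6 TPM) in LD* and from 41.6 to 92.5 TPM (median 68.4 TPM) in HD*, so that the groups overlapped over most of their range (rho −0.614). After TMM rescaling the list's median was −0.125 (against 0.00589). Of 16 immediate early genes, which neurons switch on with activity, 15 were negative (median −0.400), and FOSB, FOS, JUN and the phosphatase DUSP6 were at an unadjusted p under 0.05, beside 13.4% of all genes. After TMM rescaling 1 of the 16 was at that level (median −0.214), beside 688 of all 9197 with a negative rho. Without cohort 4 there were 0 by the permutation test, beside 211 of all 9197. FOSB ran from 5.76 to 26.9 TPM in LD* and from 4.18 to 17.7 TPM in HD*, with a rho of −0.670 and of −0.707 without LD 5, VHD 3 and VHD 4, and controls spanned 1.42 to 21.0 TPM.

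Ribosomal protein genes ran the other way. All 76 measured had a positive rho (median 0.366, against −0.264), from 0.0957 for RPS15A to 0.604 for RPS19, and 8 were at an unadjusted p under 0.05 with a positive rho, beside 2.6% of all genes. RPS19 ran from 684 to 1388 TPM in LD* and from 701 to 1689 TPM in HD*, with LD 5 and VHD 4 at the top of their groups. The list sum had a median of 91121 TPM in LD*, 97618 TPM in HD* and 98471 TPM in controls. Controls thus did not lie below the drinkers, and Control 8 had a sum of 153377 TPM. All 76 stayed positive after TMM rescaling (median 0.399, against 0.00589) and without cohort 4 (median 0.326, against −0.227). Without LD 5, VHD 3 and VHD 4 the median was 0.171 (against −0.102) and 6 genes turned negative. Of the 76, 0 were then at an unadjusted p under 0.05 by the permutation test.

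Of 76 subunits of oxidative phosphorylation 59 had a positive rho (median 0.406), 24 of them at an unadjusted p under 0.05, beside 2.6% of all genes, with 1 negative at that level (NDUFS1, −0.549). COX5B, a subunit of cytochrome c oxidase, had the highest rho (0.760, permutation p = 0.00091), with 810 to 1187 TPM in LD* and 931 to 1400.3 TPM in HD*. It kept 0.760 after TMM rescaling and had 0.789 without LD 5, VHD 3 and VHD 4. The list's median was 0.310 without those animals, with 61 of 76 positive, beside 3409 of all 9197. Of these, 4 were at an unadjusted p under 0.05, beside 107 of all 9197 with a positive rho. Of 47 translation initiation factors, 34 had a negative rho (median −0.312), and after TMM rescaling 26 were positive (median 0.102). EIF3K, a subunit of the eIF3 complex, had the highest rho (0.490) and EIF4E2, a cap-binding protein, the lowest (−0.585).

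**Figure D4:**
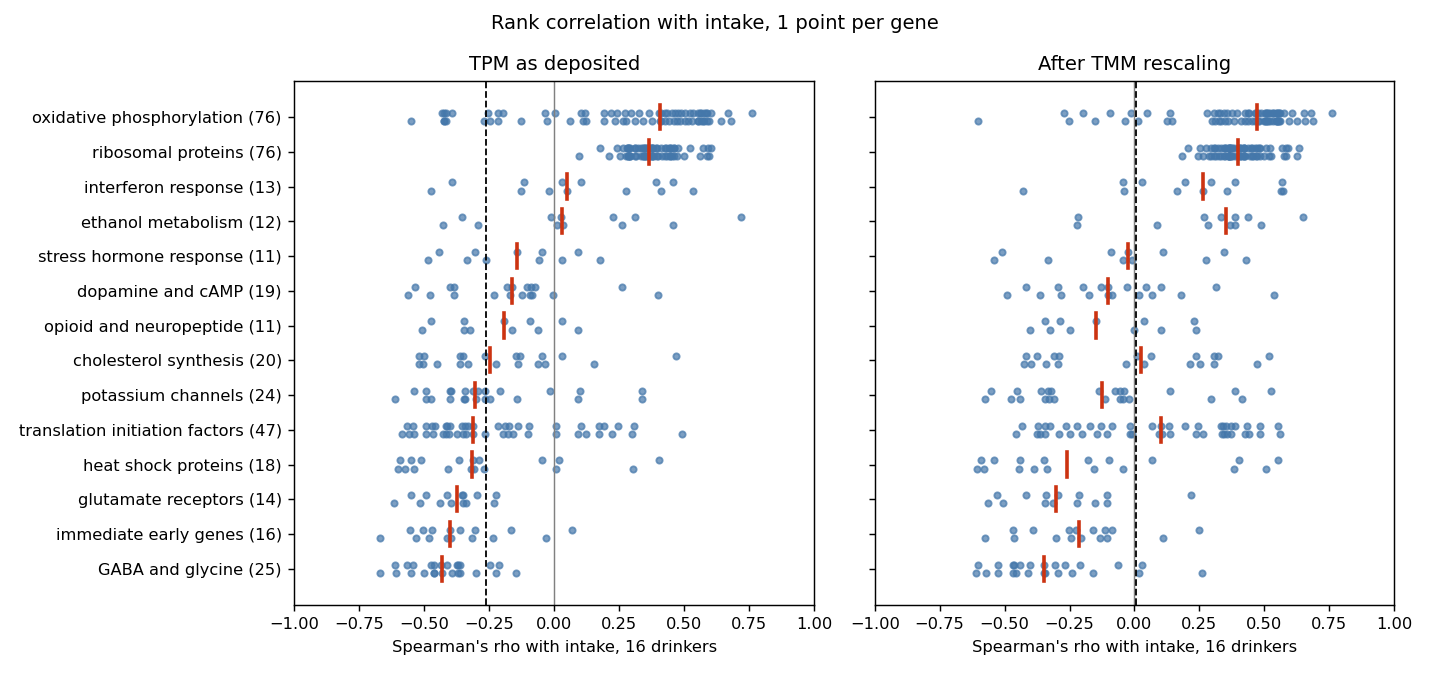
Spearman's rho with intake in 16 drinkers for each gene of 14 lists, on deposited TPM (left) and after TMM rescaling (right), with the number of genes in parentheses; red bars are list medians and the dashed line is the median of all 9197 genes (−0.264 and 0.00589). GABA and glycine genes lie lowest (medians −0.430 and −0.349), and ribosomal protein and oxidative phosphorylation genes highest.

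Among 12 enzymes of ethanol, acetaldehyde and acetate metabolism 8 had a positive rho (median 0.0302), and ALDH2 was the 1 gene at an unadjusted p under 0.05. ADH5 had a rho of 0.0118, ALDH1A1 of 0.259, the catalase gene CAT of −0.0118 and ACSS2, which makes acetyl-CoA from acetate, of −0.429. After TMM rescaling 10 of 12 were positive (median 0.351, against 0.00589). With controls at 0 g/kg added, 10 of 12 were negative (median −0.148), beside 7183 of all 9197 (median −0.176). Of 18 heat shock genes 14 were negative (median −0.316), a share near that of all genes (6784 of 9197), and 6 were at an unadjusted p under 0.05, beside 13.4% of all genes, including HSPA5, the chaperone BiP (rho −0.601), and HSP90AB1 (−0.594), whereas CRYAB had a rho of 0.404. Without LD 5, VHD 3 and VHD 4 the median of heat shock genes was −0.138 (against −0.102) and 0 were at that level by the permutation test.

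Of 11 genes of the stress hormone response 8 were negative (median −0.141), from NR3C2, the mineralocorticoid receptor (−0.486), to DDIT4, an mTORC1 inhibitor (0.178), and 0 were at an unadjusted p under 0.05 by the permutation test. Of 20 cholesterol synthesis genes 17 were negative (median −0.246), from LSS, lanosterol synthase (−0.521), to EBP, a sterol isomerase (0.468), and 11 were positive after TMM rescaling. Of 13 interferon response genes 8 were positive (median 0.0486), with IFI27 highest (rho 0.533; 22.4 to 50.7 TPM in LD*, 25.1 to 108 TPM in HD* and 38.8 to 83.9 TPM in controls). After TMM rescaling 10 of the 13 were positive, beside 4636 of all 9197. Of these, 3 were at an unadjusted p under 0.05, beside 604 of all 9197 with a positive rho. Rescaled values without cohort 4, or without LD 5, VHD 3 and VHD 4, gave 0 of the 13 at that level by the permutation test. With controls at 0 g/kg added, 11 of the 13 were negative, near the share of all genes, and IFI27 had a rho of −0.0651. Myelin genes MBP (rho 0.563) and MOBP (0.542) were the 2 of 12 oligodendrocyte markers at an unadjusted p under 0.05. Over all genes 2.6% had a positive rho at that level. MBP and MOBP had rho of 0.346 and 0.326 without cohort 4, where 9 of the 12 markers were negative, a share near that of all genes (6864 of 9197).

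Since intake did not overlap between LD* and HD*, a gradient over all drinkers could be a step between them. With the group as a term beside intake, the intake slope gave 0 genes at an adjusted p under 0.05 in limma (smallest adjusted p = 0.426) and 836 at an unadjusted p under 0.05 (9.09%). The slopes of LD* and HD* differed for 0 genes (smallest limma adjusted p = 0.999) and for 141 at an unadjusted p under 0.05 (1.53%). Of all genes on deposited TPM, 78.2% had rho of the same sign inside LD* and inside HD*, 5374 negative and 1820 positive in both. Inside LD* 6410 of all 9197 were negative and inside HD* 6316, so these shares partly set the agreement in sign. After TMM rescaling 50.4% and 51.8% were positive, and the agreement was not counted.

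The medians of the ribosomal protein list and of the GABA and glycine list held the same signs inside the groups. The median rho of ribosomal protein genes was 0.551 in LD* and 0.671 in HD*, against −0.335 and −0.311 over all genes, and that of GABA and glycine genes −0.491 and −0.551. Inside cohort 7a they were 0.464 and −0.750, against −0.536. After TMM rescaling they were 0.527 and 0.671 for ribosomal protein genes and −0.431 and −0.503 for GABA and glycine genes, against 0.0120 and 0.0359. On deposited TPM, the HD* medians of glutamate receptor (−0.623), dopamine and cAMP (−0.659) and potassium channel genes (−0.605) lay below that of GABA and glycine genes. In LD* they lay above it (−0.443, −0.287 and −0.407). The oligodendrocyte markers had a median of 0.659 in LD* and −0.216 in HD*. LD 5 was the highest drinker of LD* and VHD 4 the second highest of HD*, and their part in these within-group medians was not tested. Of the named genes, ZNF134 had the rho farthest from 0 in cohort 7a (−0.964), and its lowest HD* level was in VHD 4 (18.1 TPM). Genes were named on animals that include these 7, so no test is drawn from their values in cohort 7a.

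**Figure D5:**
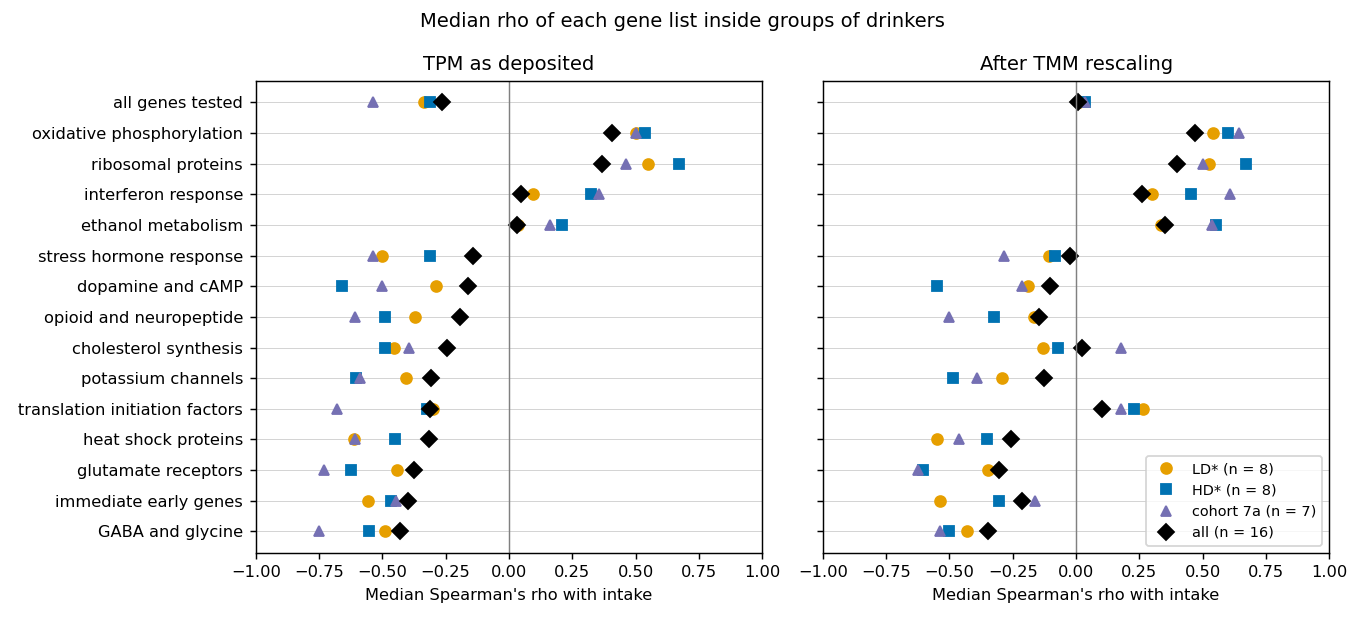
Median Spearman's rho with intake of each gene list and of all genes tested, inside LD* (n = 8), HD* (n = 8) and cohort 7a (n = 7) and over all 16 drinkers, on deposited TPM (left) and after TMM rescaling (right). Ribosomal protein and oxidative phosphorylation medians are positive, and GABA and glycine and glutamate receptor medians negative, in all 8 combinations.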

How the data were processed

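Small dissections of the NAcc core, taken to avoid white matter and shell, had been turned into polyA-selected libraries from 24 animals. Per the study's methods and the labels, reads were aligned with STAR 2.5.2b to the MacaM macaque assembly and counted with HTSeq 0.6.1p1. The deposited values are TPM for 17208 gene symbols, 27 of which had been turned into dates, and each column sums to between 999998 and 1000000 TPM. How counts became TPM is not given in the sources used here, read depth is therefore unknown, and a count test could not be run. Strand and read pairing are described differently in the sources, so genes that overlap on opposite strands may share reads.

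Groups came from the labels, and blood ethanol and age of each animal from the study's table of animals; 1 drinker (LD 2) had no blood ethanol value. The 9197 genes that averaged 10 TPM or more across 24 animals were analysed as log2(TPM + 1), which understates slopes of low genes. Spearman's rho was tested two-sided with 100000 permutations of intake over animals, and slopes with limma 3.58.1 (lmFit, eBayes with trend) in R 4.3.3, both with Benjamini-Hochberg adjustment over all 9197. Tests inside cohort 7a were exact over 5040 permutations. TMM rescaling trimmed 30% of M and 5% of A values. Named genes were the 10 of each direction with the smallest limma p for intake, 3 of each direction for blood ethanol, and the highest and lowest rho of each list. A few results on single genes are not reported here. The members, lists and tests were chosen with earlier results of these data known. Alternatives were the scaling, low-value filter, pseudocount, Pearson's r, cohort, age and other terms, and leaving out animals. Each animal gave 1 library, so p-values measure the spread between animals. The rank test and the limma slope on intake were tested on simulated data with known slopes, in which genes varied independently of each other. The other steps were not tested in that way. Python 3.11.15, numpy 2.4.6, scipy 1.17.1, pandas 2.3.3 and matplotlib 3.10.9 were used.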

Additional observations from a re-analysis of the deposited data

Results flagged for a closer look

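In each of the 3 groups (LD*, HD* and controls, 8 animals each) the highest and lowest level of each named gene was set against the others by Dixon's criterion, which chance alone meets in about 1 group in 20. Of 156 combinations of gene and group, 17 met it (10.9%). The genes were named from these same animals and share their libraries, so this share cannot be set against 1 in 20. It was not counted over all genes. The 17 were spread over 11 animals, VHD 4 with the most (5). VHD 4 lay apart from the other 7 HD* animals in TNNC2 (29.03 TPM, the others at most 19.4 TPM), CINP (257.1 TPM, at most 172.8 TPM), EIF3K (1023 TPM, at most 795.2 TPM), RPS15A (2039 TPM, at most 1217 TPM) and ZNF134 (18.1 TPM, the others at least 25.1 TPM), and it had the lowest TMM factor of the 24 animals (0.702). LD 5, also of low factor, lay apart in LD* for RPS15A (2246 TPM, the others at most 1258 TPM), and Control 8, with a factor of 0.852, in RPS19 (1352 TPM, the others at most 956 TPM).

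Control 2, which had the highest sum of cortical excitatory neuron markers among the controls, lay apart in CCK (135.9 TPM, the others at most 24.8 TPM) and C1QL3 (35.64 TPM, the others at most 14.9 TPM). VHD 2 lay apart in COL9A1 (23.65 TPM, the others at most 14.0 TPM) and STAT2 (31.75 TPM, the others at most 20.7 TPM). EBP had an animal apart in both drinking groups, LD 4 at 65.28 TPM (the others at most 50.7 TPM) and HD 4 at 71.04 TPM (the others at most 54.2 TPM). The remaining 4 were C1orf95 in HD 1 (85.74 TPM), FHL2 in LD 8 (34.21 TPM), GABRG1 in Control 5 (42.64 TPM) and ARC in Control 7 (40.72 TPM).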

How the results depend on the processing

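The count of genes at an adjusted p under 0.05 differed from the 0 reported in 3 alternatives and was 0 in the other 86. Rank correlation with 1000000 permutations called 1 gene after TMM rescaling and 1 in the 13 drinkers without LD 5, VHD 3 and VHD 4 after TMM rescaling, in both cases STON2 (adjusted p = 0.0276 and 0.0184 in the permutation test), and limma called 1 for blood ethanol with intake as a term (WIF1, adjusted p = 0.0429). The number of permutations and the 13 animals were chosen after seeing the data. With each drinker left out the called count stayed at 0 by rank and by limma for intake, and by limma for blood ethanol without a second term. The rank correlation with blood ethanol was not run in this way. In limma, the genes at an unadjusted p under 0.05 ran from 163 (without VHD 4) to 1394 (without LD 5) for intake. For blood ethanol they ran from 86 (without LD 8) to 506 (without LD 5). Counts at an unadjusted p under 0.05 moved by over 1.5 times in 46 of 89 alternatives, for causes that were not tested. By rank they were 2104 with no filter, 372 of the 1925 genes that averaged 100 TPM or more and 483 with Pearson's r.

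The sign of rho changed for a few genes of weak relation. After TMM rescaling it was 0.0515 for FHL2, 0.218 for GRIK5 and 0.0162 for GABRG1, and with cohort 4 also left out 0.2401 for GRIK5 and 0.0969 for GABRG1. Without LD 2 and VHD 1 it was 0.0132 for GABRG1 and −0.1388 for ARC. Without LD 5, VHD 3 and VHD 4 it was 0.1128 for FHL2 and −0.1761 for RPS15A, and with TMM rescaling as well 0.1541 for FHL2, 0.2228 for GRIK5, 0.0083 for GABRG1 and −0.0193 for RPS15A. With controls at 0 g/kg it was 0.1055 for GRIK5, −0.0908 for CCK, −0.1019 for RPS15A and −0.0651 for IFI27. Pearson's r was −0.2247 for CCK. With 1 drinker left out rho ran from −0.0250 to 0.313 for CCK, −0.125 to 0.170 for ARC, −0.234 to 0.0590 for FHL2, −0.308 to 0.0143 for GABRG1 and −0.0447 to 0.245 for RPS15A.

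No paired analysis was possible because each animal was measured at 1 intake and replicate numbers only name the animals of a category. The number of animals limits precision (a rho under 0.498 in size could not reach an unadjusted p under 0.05), LD* and HD* did not overlap in intake, and cohort 4 and the lowest intakes cannot be told apart.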
